A study of Mus musculus with 8 samples.

Results

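The IL-20 family cytokines Il19, Il20 and Il24 and the receptor chains Il20ra, Il20rb, Il22ra1, Il22ra2 and Il10rb were followed by gene symbol in RNA sequencing of mouse skin, 8 genes of 22740 protein-coding genes listed, and 8 of these 8 were among the 15163 genes that passed the filter on low counts. Dorsal skin came from 8 female BALB/c mice, aged 6 to 8 weeks in the labels, with 2 mice in each of 4 groups. Baseline CTL mice drank plain water and were not exposed to allergen, baseline butyrate mice drank 400 mM sodium butyrate, lesional CTL mice received 4 epicutaneous exposures to 15 µg of house dust mite extract (HDM) over 2 weeks, and lesional butyrate mice received both, with butyrate begun 2 weeks before HDM. A low-fibre diet was given to all mice of such experiments in the study's methods, so the CTL groups carry that diet too, and nothing in the labels says whether the mice of a group shared a cage or litter.

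IL-19, IL-20 and IL-24 are cytokines of the IL-10 family that are made by keratinocytes and by immune cells and that act mainly on epithelial cells. All 3 bind a receptor made of IL-20RA and IL-20RB, and IL-20 and IL-24 also bind a receptor made of IL-22RA1 and IL-20RB. IL-22RA1 joined to IL-10RB forms the receptor for IL-22, which the soluble protein IL-22RA2 binds and keeps from its receptor. In skin these receptors signal through JAK kinases and STAT3, and they are known for driving keratinocyte growth and antimicrobial genes and for slowing terminal differentiation in psoriasis and eczema.

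Libraries held 18004136 to 21085544 counts, and levels are given as CPM, the counts scaled to a common TMM-adjusted library total, in which 3 counts, the floor used here, were worth 0.138 to 0.169 CPM. None of the 6 basal or 6 suprabasal keratinocyte markers was at 0 in any group. The library of baseline butyrate replicate 3 stood apart. Its 6 hair follicle markers summed to 16649.6 CPM against 6.19 to 14.1 in the other 7 libraries, and its suprabasal markers summed to 3909.7 CPM against 16990.2 in the other mouse of its group. Comparisons that use this library are given below with values from fits without it.

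On the reference genome (GRCm38, GENCODE vM21), the 3 ligand genes lie side by side on the minus strand of chromosome 1. Il24 (ENSMUSG00000026420) spans 130882074 to 130887454, Il20 (ENSMUSG00000026416) spans 130906985 to 130911451 and Il19 (ENSMUSG00000016524) spans 130932656 to 130940115. Gaps of 19531 bp and 21205 bp separate them, and Il10 follows 79730 bp beyond Il19. Il22ra2 (ENSMUSG00000039760, 19621998 to 19634681) and Il20ra (ENSMUSG00000020007, 19712570 to 19760053) are both on the plus strand of chromosome 10, 77889 bp apart and beyond Ifngr1. Il20rb (ENSMUSG00000044244) is on chromosome 9 from 100457719 to 100486788, minus strand. Il22ra1 (ENSMUSG00000037157) is on chromosome 4 from 135728172 to 135752140, plus strand, 19991 bp from the interferon lambda receptor gene Ifnlr1. Il10rb (ENSMUSG00000022969) is on chromosome 16 from 91406164 to 91425834, plus strand, 575 bp from Ifnar2. The annotation places the protein-coding gene Gm21970 over Il10rb on the same strand, with 0 counts in all 8 libraries, so reads that both could claim make the Il10rb level uncertain. An antisense gene, Gm33332, overlaps Il20ra, and since the library kit is not stated to keep strand, its reads and those of Il20ra cannot be told apart here.

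RefSeq start-site windows, from 250 bases before to 50 bases after the RefSeq start on GRCm38.p6, were found for 5 of the 8 genes (Il19, Il20, Il20ra, Il20rb and Il22ra1) and not for Il24, Il22ra2 or Il10rb. The RefSeq start of Il20 lies inside the GENCODE span given above, which on the minus strand begins at 130911451. Its window thus holds fewer bases before the GENCODE start than that of Il19, and the windows are not like regions. The windows of Il19 and Il20 are shown because these neighbouring ligands had fitted log2 fold-changes of 5.58 and 0.95 in lesional against baseline CTL skin. That difference between genes was not tested. The window of Il20ra is shown because it is the receptor chain with the larger changes among those with a window. They are the C57BL/6J reference sequence and not that of BALB/c. Capitals mark matches to the STAT motif TTCNNNGAA, to the NF-kB motif or to the AP-1 motif TGANTCA, searched on both strands.
Il19, chr1:130940066-130940365, minus strand: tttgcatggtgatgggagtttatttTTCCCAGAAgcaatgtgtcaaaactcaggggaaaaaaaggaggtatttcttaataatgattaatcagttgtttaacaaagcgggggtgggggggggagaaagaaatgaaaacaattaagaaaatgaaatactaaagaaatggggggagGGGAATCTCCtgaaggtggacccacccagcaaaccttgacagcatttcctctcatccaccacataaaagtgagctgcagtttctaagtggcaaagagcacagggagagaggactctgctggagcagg
Il20, chr1:130911247-130911546, minus strand: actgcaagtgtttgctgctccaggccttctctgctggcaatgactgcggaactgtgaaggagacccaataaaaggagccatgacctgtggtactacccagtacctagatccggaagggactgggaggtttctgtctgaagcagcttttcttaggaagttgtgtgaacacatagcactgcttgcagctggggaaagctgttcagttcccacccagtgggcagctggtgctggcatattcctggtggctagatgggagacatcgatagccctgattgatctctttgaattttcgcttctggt
Il20ra, chr10:19712337-19712636, plus strand: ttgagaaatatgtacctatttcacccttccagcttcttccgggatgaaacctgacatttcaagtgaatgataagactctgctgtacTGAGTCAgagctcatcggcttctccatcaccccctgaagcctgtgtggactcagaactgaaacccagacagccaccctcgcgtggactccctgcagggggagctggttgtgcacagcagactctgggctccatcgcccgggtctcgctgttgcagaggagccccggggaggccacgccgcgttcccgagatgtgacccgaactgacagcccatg
In the Il19 window the STAT match began 225 bases before the start and the NF-kB match 77 bases before it. In the Il20ra window the AP-1 match began 164 bases before the start. The Il20 window held no match to these 3 motifs, and none of the printed windows held the TATA box TATAAA. No 2 matches overlapped. Among 32851 windows of the same length, 8.30% held the STAT motif, 8.46% the NF-kB motif, 7.81% the AP-1 motif and 13.6% the TATA box, so a match is a description of these letters only.

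Before HDM exposure the ligands were low and the receptor chains were not. In baseline CTL skin Il20, a keratinocyte and monocyte cytokine, had 28 and 23 counts, or 1.55 and 1.27 CPM. Il19, which shares its receptor, had 9 and 16 counts, or 0.499 and 0.886 CPM. Il24 had 0 and 1 counts in baseline CTL skin and 2 and 0 in baseline butyrate skin, at or under the floor of 3 counts in all 4 baseline mice. Per kilobase of exon (RPKM), the order in baseline CTL skin was Il20rb (40.4 ± 4.38 RPKM, SD, n = 2), Il20ra (29.0 ± 2.24), Il22ra1 (8.82 ± 1.81), Il10rb (7.26 ± 0.796), Il22ra2 (7.17 ± 0.461), Il20 (1.19 ± 0.166), Il19 (0.603 ± 0.238) and Il24 (0.0200 ± 0.0282). The ranges of Il22ra1, Il10rb and Il22ra2 overlapped from one to the next in that order, while the other neighbours did not overlap. Lengths are the union of all annotated exons, so these comparisons between genes hold only as far as the transcripts in skin use them.

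**Figure D1:**
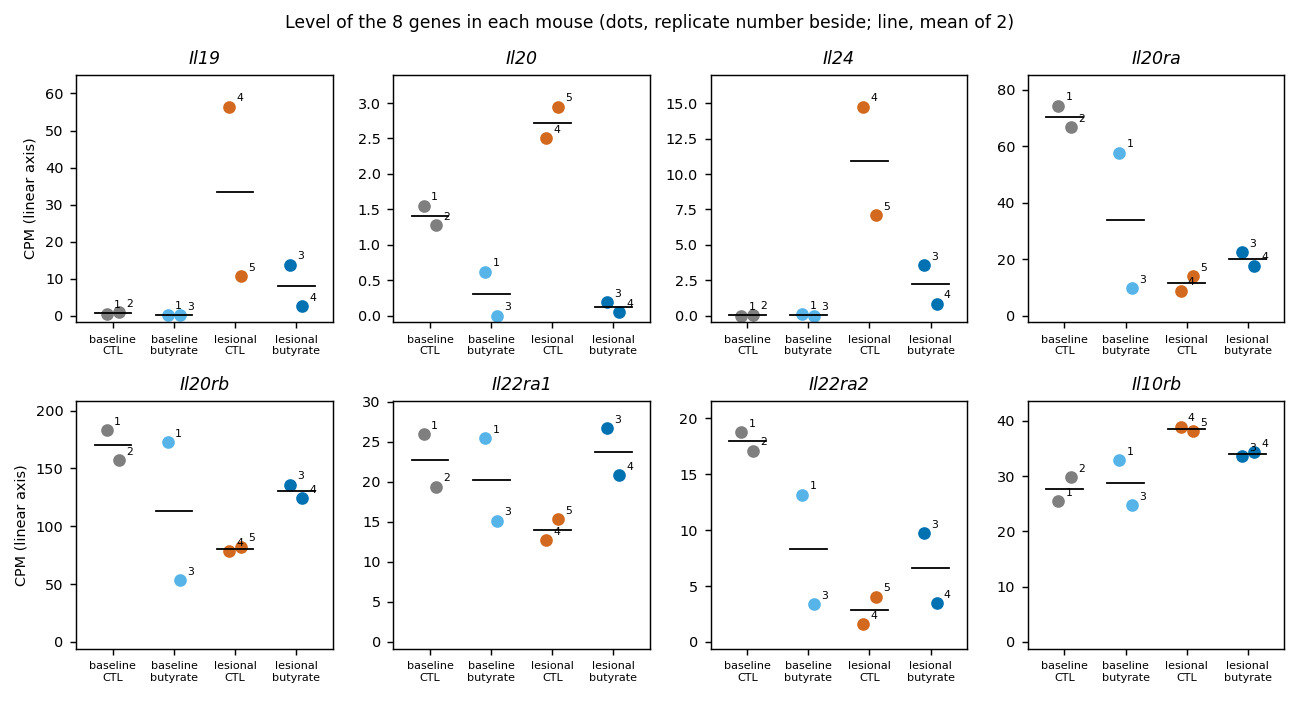
CPM of each of the 8 genes (linear axis from 0, 1 panel per gene) in each mouse, with the replicate number beside the dot and a line at the mean of the 2 mice of a group. Il19, Il20 and Il24 are highest in lesional CTL skin, Il20ra, Il20rb and Il22ra2 are highest in baseline CTL skin, and baseline butyrate replicate 3 is at 9.79 CPM for Il20ra against 57.6 CPM in the other mouse of its group.

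The comparison of lesional with baseline CTL skin asks how these genes responded to HDM exposure without butyrate. In the study's methods HDM was held on shaved skin of anaesthetised mice by a gauze under a dressing. No group here is given as shaved and dressed without HDM, so these steps cannot be told apart from HDM in comparisons of lesional with baseline skin. The paper cites its earlier work, in which a saline patch gave no overt inflammation. Il19 and Il24 rose, Il20 was higher by a small margin, and Il20ra, Il20rb, Il22ra1 and Il22ra2 were lower without passing the test. Genes were called at a fold-change above 2 and an FDR (Benjamini-Hochberg adjusted p of edgeR's quasi-likelihood test on all 8 mice) below 0.1. The test called 2 of the 8 genes, both higher, against 3.58% of all genes called and 2.37% called higher. At an unadjusted p below 0.05 it had 5 of the 8 (Il19, Il24, Il20ra, Il22ra2 and Il10rb) against 19.7% of all genes. DESeq2 called 4 of the 8 and 7.21% of all genes, and limma-voom called 1 (Il24) and 3.81%. In 8 of 8 genes the 2 groups did not overlap, against 75.2% of all genes.

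Il19 reached 56.4 and 10.7 CPM in lesional CTL skin, from 1059 and 232 counts. Both mice were far above the baseline CTL mice, but replicate 4 was 5.28 times replicate 5. The fitted log2 fold-change was 5.58 (SE 1.27, edgeR FDR 0.0919). Il24, a cytokine that signals through both receptor types, was at 14.7 and 7.09 CPM, from 277 and 154 counts. As the baseline CTL mice had 1 count between them, its ratio of summed levels was 384 with an exact 95% interval of 68.6 to 15208 that covers counting error only, and the fitted log2 fold-change of 8.33 (SE 1.34, edgeR FDR 0.0454) depends on the prior count. Il20 had 2.5 and 2.95 CPM in lesional CTL skin, both above the 1.27 and 1.55 CPM of the baseline CTL mice. Its log2 fold-change of 0.95 (SE 0.91, edgeR FDR 0.572) was about as large as its standard error.

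Within a library, this left a different make-up of the 3 ligands. Il20 made up 75.1% and 57.0% of the summed ligand RPKM in baseline CTL mice and 3.41% and 14.7% in lesional CTL mice. Il19 made up 79.4% and 55.0% in lesional CTL mice, and Il24 17.2% and 30.3%. In lesional CTL skin the RPKM of Il19 (29.2 ± 28.1, n = 2) overlapped that of Il20rb (19.1 ± 0.686), so a ligand and its receptor chain could not be ordered by level. Baseline shares rest on 37 and 40 ligand counts in the CTL mice, 18 in baseline butyrate replicate 1 and 1 in replicate 3, and the share in the last is not interpretable.

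**Figure D2:**
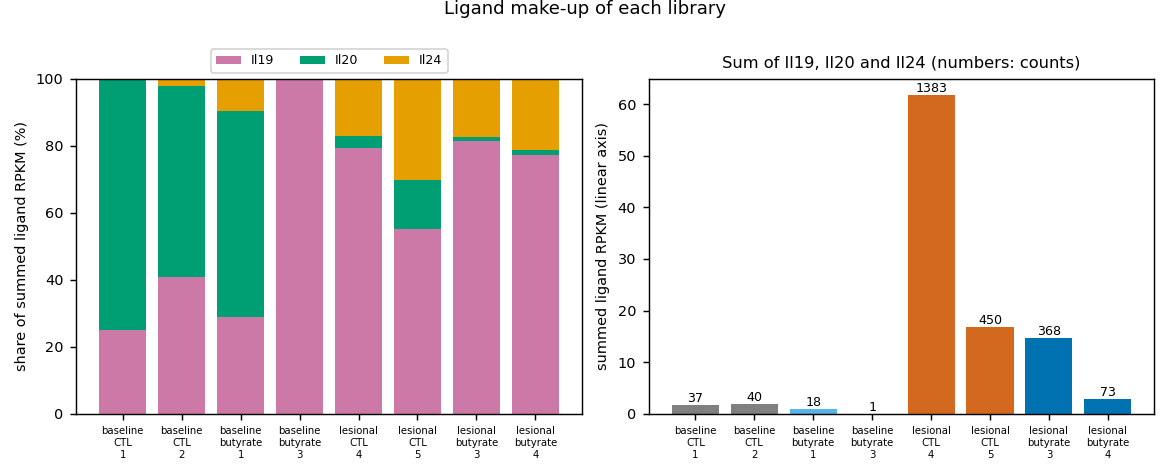
Left, share of Il19, Il20 and Il24 in their summed RPKM in each library (percent, stacked to 100). Right, the summed RPKM itself (linear axis from 0) with the number of ligand counts above each bar. Il20 has the largest share in both baseline CTL mice and Il19 in all 4 lesional mice, and the sum is 61.8 and 16.9 RPKM in lesional CTL skin against 14.7 and 2.82 RPKM in lesional butyrate skin.

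Of the receptor chains, 4 of 5 had lower values in both lesional CTL mice than in both baseline CTL mice, and 0 of 5 were called. In this comparison 75.2% of all genes did not overlap in either direction. Il20ra, the chain that binds all 3 ligands together with Il20rb, was at 74.3 and 66.7 CPM in baseline CTL skin and at 8.78 and 14.0 CPM in lesional CTL skin, without overlap. Its log2 fold-change was -2.62 (SE 0.77, edgeR FDR 0.151). Il22ra2, the soluble binder of IL-22, was at 18.7 and 17.1 CPM in baseline CTL skin and at 1.60 and 4.05 CPM in lesional CTL skin. The groups were again apart, with a log2 fold-change of -2.66 (SE 0.83, edgeR FDR 0.169). Il20rb, the shared chain of both IL-20 receptor types, had 183 and 157 CPM in baseline CTL skin against 78.3 and 82.4 CPM in lesional CTL skin, a log2 fold-change of -1.08 (SE 0.49, edgeR FDR 0.281). Il22ra1 had 25.9 and 19.4 CPM against 12.7 and 15.3 CPM, a log2 fold-change of -0.69 (SE 0.31, edgeR FDR 0.276). Il10rb, which serves the receptors of IL-10, IL-22 and interferon lambda, was the receptor chain with higher values in lesional CTL skin, at 39.0 and 38.2 CPM against 25.5 and 29.8 CPM (log2 fold-change 0.48, SE 0.18, edgeR FDR 0.217). Without the baseline butyrate group in the fit, edgeR FDRs were 0.0241 for Il10rb, 0.0501 for Il22ra1 and 0.0855 for Il20. Each of these had a fold-change below 2 and was not called, and that fit called 12.4% of all genes. When either baseline butyrate mouse, which is in neither group compared, was left out of the fit, Il20ra, Il20rb and Il22ra2 were called as well and 5 of the 8 genes passed, while the share of all genes called was 12.3% or 12.5%. Leaving out any of the other 6 mice left 0 of the 8 called and 0% to 0.748% of all genes.

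The proportions of these chains within a library also differed between the groups. The RPKM ratio of Il20rb to Il20ra was 1.42 and 1.36 in baseline CTL mice and 5.15 and 3.39 in lesional CTL mice. The ratio of Il22ra1 to its soluble counterpart Il22ra2 was 1.35 and 1.10 in baseline CTL mice and 7.75 and 3.68 in lesional CTL mice. Both ratios were higher in each lesional CTL mouse than in each baseline CTL mouse, and they have no test of their own. Baseline butyrate replicates 1 and 3 had 1.73 and 3.16 for the first ratio and 1.88 and 4.36 for the second. The unexposed replicate 3, the library that stood apart, was thus inside the lesional CTL range for the second. In lesional butyrate mice the ratio of Il20rb to Il20ra was 3.51 and 4.06, and that of Il22ra1 to Il22ra2 was 2.67 and 5.81, each overlapping the lesional CTL range.

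Markers of other cells differed in the same comparison. All 8 neutrophil markers were called higher in lesional CTL skin, as were 2.37% of all genes. They had summed levels of 1773 to 2838 CPM against 23.4 to 27.2 CPM at baseline. The 6 suprabasal keratinocyte markers summed to 3926 to 5603 CPM against 16616 to 17754 CPM, with 1 of 6 called lower. Of all genes, 3.58% were called in either direction. The 6 basal markers summed to 11498 to 13070.0 CPM against 11222 to 11791 CPM, with 0 of 6 called. In skin as a whole, fewer cells of a type and less RNA per cell cannot be told apart, and the part of these markers in the changes of the ligands and receptors was not tested.

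The comparison of lesional butyrate with lesional CTL skin asks whether butyrate changed these genes under HDM. The ligands were lower and 4 of the 5 receptor chains were higher in the butyrate-treated mice, and none passed the test. edgeR called 0 of the 8 genes, and 0% of all genes tested. At an unadjusted p below 0.05 the test had 3 of the 8 (Il20, Il24 and Il22ra1) against 4.84% of all genes. DESeq2 called 1 (Il20) and 0.818% of all genes, and limma-voom called 0 and 0.0066%. The groups did not overlap for 6 of 8 genes, against 44.9% of all genes, and 3 of these were higher (22.4% of all genes) and 3 lower (22.5%).

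Il20 was at 0.190 and 0.0464 CPM in lesional butyrate mice, from 4 and 1 counts, the second of which is under the floor. Both were below the lesional CTL mice, which had 47 and 64 counts, and also below both baseline CTL mice. From 111 against 5 summed counts, the lesional CTL level was 23.3 times the lesional butyrate level, with an exact 95% interval of 9.70 to 73.2 that covers counting error only. The log2 fold-change was -4.46 (SE 1.18, edgeR FDR 0.757). Without the whole baseline butyrate group in the fit, Il20 was called, with an edgeR FDR of 0.0418, as were 1.25% of all genes. With only the 4 mice compared in the fit, edgeR called 0 of the 8 and 0.168% of all genes, and limma-voom 0 of the 8 and 0.094%.

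Il24 was at 3.57 and 0.835 CPM, from 75 and 18 counts, in lesional butyrate mice, and both mice lay below the 2 lesional CTL mice. Its log2 fold-change was -2.31 (SE 0.82, edgeR FDR 0.951), and leaving out 1 mouse moved it to -3.70 (lesional butyrate replicate 3 omitted) or -1.61 (replicate 4 omitted). Il19 was at 13.8 and 2.51 CPM, from 289 and 54 counts, and here the groups overlapped, since lesional butyrate replicate 3 was above lesional CTL replicate 5 (10.7 CPM). The log2 fold-change of Il19 was -2.04 (SE 1.03, edgeR FDR 1.00), and it was -0.39 without lesional CTL replicate 4, so the size of the Il19 difference rests on that mouse. Replicate 3 was the higher of the 2 lesional butyrate mice for all 3 ligands. Without the baseline butyrate group in the fit, edgeR FDRs were 0.194 for Il24 and 0.4015 for Il19, and neither was called.

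Among the receptor chains, Il22ra1 was at 26.7 and 20.8 CPM in lesional butyrate mice, both above the lesional CTL mice and within or just above the 19.4 to 25.9 CPM of baseline CTL mice. Its log2 fold-change was 0.76 (SE 0.31, edgeR FDR 1.00). Il20rb was at 136 and 124 CPM, between the lesional CTL and the baseline CTL mice without touching either, with a log2 fold-change of 0.70 (SE 0.48, edgeR FDR 1.00). Without the baseline butyrate group in the fit its edgeR FDR was 0.0710, with a fold-change below 2 and no call. Il20ra was at 22.4 and 17.7 CPM, also between those groups, with a log2 fold-change of 0.81 (SE 0.74, edgeR FDR 1.00). Il22ra2 was at 9.71 and 3.48 CPM, and the lower of these mice was inside the lesional CTL range (log2 fold-change 1.21, SE 0.80, edgeR FDR 1.00). Omitting lesional butyrate replicate 3 gave 0.30, and omitting lesional CTL replicate 5 gave 2.04. Il10rb was at 33.6 and 34.4 CPM, a little below both lesional CTL mice, with a log2 fold-change of -0.18 (SE 0.18, edgeR FDR 1.00). In the fit without the baseline butyrate group, edgeR FDRs were 0.171 for Il22ra1, 0.203 for Il20ra, 0.416 for Il22ra2 and 0.505 for Il10rb. No receptor chain was called in it.

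Il20ra, Il20rb and Il22ra1 were lower in lesional than in baseline CTL skin and higher in lesional butyrate than in lesional CTL skin without overlap in either step, a pattern that 14.7% of all genes had. Il20, Il24 and Il10rb had the opposite pattern without overlap, as did 13.9% of all genes. Both steps share the lesional CTL mice, so they are not independent of each other. Neutrophil markers summed to 372 to 800.4 CPM in lesional butyrate skin, with 8 of 8 markers lower without overlap (22.5% of all genes) and 0 called. The suprabasal markers summed to 11926 to 15177 CPM, with 6 of 6 higher without overlap (22.4% of all genes) and 0 called. The part of either marker group in the differences of the 8 genes was not tested.

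**Figure D3:**
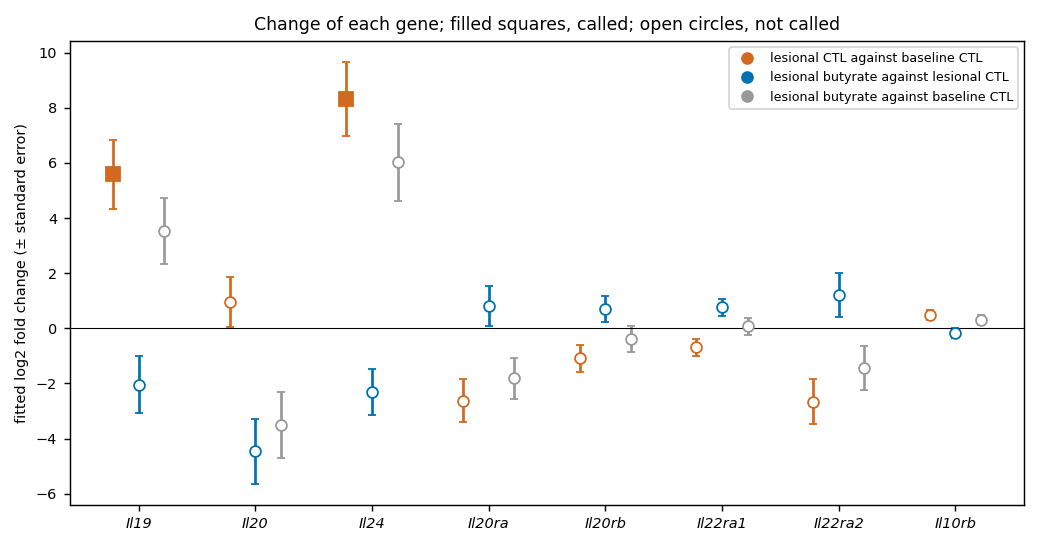
Fitted log2 fold-change (y axis) with its standard error (bars) for each of the 8 genes (x axis) in 3 comparisons, with filled squares for calls and open circles for no call. Il19 (5.58) and Il24 (8.33) in lesional against baseline CTL skin are the 2 calls, and Il20 is the ligand that lies at -3.52 in lesional butyrate against baseline CTL skin.

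Lesional butyrate skin was also set against unexposed CTL skin, to see where these genes stood relative to skin with neither agent. edgeR called 0 of the 8 against 0.383% of all genes, with 4 of the 8 (Il19, Il20, Il24 and Il20ra) at an unadjusted p below 0.05 against 14.6%. DESeq2 called 3 of the 8 and 3.76% of all genes, and limma-voom called 0 and 0.152%. The groups did not overlap for 7 of the 8, against 63.2% of all genes, and Il22ra1 overlapped (log2 fold-change 0.07, SE 0.30). Il24 and Il19 were above baseline CTL, with log2 fold-changes of 6.02 (SE 1.4, edgeR FDR 0.206) and 3.54 (SE 1.20, edgeR FDR 0.292). Il20 was below it, with a log2 fold-change of -3.52 (SE 1.20, edgeR FDR 0.295). From 51 against 5 summed counts, the baseline CTL level of Il20 was 12.0 times the lesional butyrate level (exact 95% counting interval 4.83 to 38.6). Il20ra was below baseline CTL by a log2 fold-change of -1.82 (SE 0.74, edgeR FDR 0.339). When the 4 mice compared were fitted alone, Il19, Il20, Il24 and Il20ra were called, as were 7.51% of all genes. Without the baseline butyrate group in the fit, Il20, Il24 and Il20ra were called, as were 8.43% of all genes. This comparison shares its mice with those above and is not an independent result.

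In baseline skin, butyrate was compared with CTL to see its effect without allergen. edgeR called 0 of the 8 and 0% of all genes, with 0 of the 8 at an unadjusted p below 0.05 against 3.49% of all genes. DESeq2 and limma-voom called 0 of the 8, beside 0.383% and 0% of all genes. In 4 of the 8 genes, Il19, Il20, Il20ra and Il22ra2, both butyrate mice were below both CTL mice, against 15.9% of all genes, and 29.7% of all genes did not overlap in either direction. Il20 was at 0.619 and 0 CPM in baseline butyrate mice, from 11 and 0 counts (log2 fold-change -2.24, SE 1.08, edgeR FDR 0.714). Il19 was at 0.281 and 0.0475 CPM, from 5 counts and 1 count.

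Most of these differences were larger in replicate 3, the library with high hair follicle markers. It had 9.79 CPM of Il20ra and 3.37 CPM of Il22ra2, whereas replicate 1 had 57.6 and 13.2 CPM. Il20rb was at 173 CPM in replicate 1, between the baseline CTL mice, and at 53.6 CPM in replicate 3, below all lesional mice. Without replicate 3 the log2 fold-change of Il20ra against baseline CTL changed from -1.07 to -0.29, that of Il22ra2 from -1.12 to -0.45, that of Il20rb from -0.59 to 0.02, that of Il20 from -2.24 to -1.18, that of Il19 from -2.10 to -1.28, that of Il24 from 0.78 to 1.80, that of Il22ra1 from -0.16 to 0.17 and that of Il10rb from 0.06 to 0.25, with 0 of the 8 called. Without replicate 1 instead, so that replicate 3 stood alone for its group, Il20, Il20ra, Il20rb and Il22ra2 were called lower, as 24.1% of all genes were called in either direction in that fit. The part of the hair follicle markers in this was not tested.

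Lesional was compared with baseline skin in butyrate-treated mice as well. edgeR called 0 of the 8 against 0.35% of all genes, with Il19 and Il24 at an unadjusted p below 0.05 against 13.1% of all genes. DESeq2 called 2 (Il19 and Il24) and 4.6% of all genes, and limma-voom called 0 and 0.277%. The groups did not overlap for 3 of the 8, against 32.5% of all genes. Il19 and Il24 had log2 fold-changes of 5.64 (SE 1.44, edgeR FDR 0.244) and 5.24 (SE 1.27, edgeR FDR 0.218). From 93 against 2 summed counts, the level of Il24 in lesional butyrate mice was 42.4 times that in baseline butyrate mice (exact 95% counting interval 11.4 to 356). For the receptor chains the log2 fold-changes lay between -0.75 (Il20ra) and 0.24 (Il10rb), and that of Il20 was -1.28 (SE 1.37). Without baseline butyrate replicate 3 Il19 had 4.82, Il24 4.21, Il20 -2.33, Il20ra -1.52, Il20rb -0.41, Il22ra1 -0.10, Il22ra2 -0.996 and Il10rb 0.05, and Il20ra was the 1 of 8 called, beside 5.94% of all genes. Without replicate 1 instead, Il20ra had 1.04, the opposite direction, and was called along with Il19, Il24 and Il20rb, beside 19.1% of all genes. The difference between the butyrate effects in lesional and baseline skin was tested as an interaction. edgeR called 0 of the 8 genes (lowest FDR 0.840) and 0% of all genes. In that test 0 of the 8 had an unadjusted p below 0.05, against 4.64% of all genes. DESeq2 and limma-voom called 0 of the 8, beside 0.244% and 0% of all genes. Il22ra2 had the largest receptor difference between the effects, 2.33 on the log2 scale (SE 1.12, edgeR FDR 0.840), which was 1.65 without baseline butyrate replicate 3 and 3.62 without replicate 1. Without replicate 3 the difference was -0.76 for Il19, -3.28 for Il20, -4.11 for Il24, 1.10 for Il20ra, 0.67 for Il20rb, 0.59 for Il22ra1 and -0.43 for Il10rb.

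Related ligands were few. Il10, the neighbour of Il19 and the cytokine that names the wider family, had 9 and 11 counts in baseline CTL and 39 and 38 counts in lesional CTL mice (log2 fold-change 1.77, SE 0.70, edgeR FDR 0.242), and 18 and 19 counts in lesional butyrate mice. Il22, which shares the Il22ra1 chain, had 0 counts in all 4 baseline mice, 12 and 2 in lesional CTL mice and 1 and 1 in lesional butyrate mice, and it was too low to be tested. Ifnl2 and Ifnl3 had 0 counts in all 8 mice, which allows up to 0.138 to 0.169 CPM at the floor of 3 counts.

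Among 6 other class II cytokine receptor genes, 1 was called in lesional against baseline CTL skin, beside 3.58% of all genes. Ifnlr1, the interferon lambda receptor gene beside Il22ra1, had 35.1 and 28.5 CPM in baseline CTL mice and 15.1 and 16.1 CPM in lesional CTL mice (log2 fold-change -1.03, SE 0.21, edgeR FDR 0.0762). It fell, and lesional butyrate mice were at 25.2 and 18.7 CPM, above both lesional CTL mice (log2 fold-change 0.49, SE 0.21, edgeR FDR 1.00). The median log2 fold-change of the 6 genes was 0.22 in lesional against baseline CTL skin and -0.13 in lesional butyrate against lesional CTL skin, beside medians over all genes of -0.02 and -0.01.

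Of 9 kinases, STAT factors and SOCS inhibitors that carry or damp these signals, Socs1 rose in lesional CTL skin and the other 8 were not called. Of all genes, 3.58% were called in that comparison and 2.37% were called higher. Socs1, an inhibitor of JAK kinases, had a log2 fold-change of 1.51 (SE 0.25, edgeR FDR 0.0450). Socs3, an inhibitor that STAT3 induces, was at 67.5 and 83.7 CPM in baseline CTL, 191 and 179 CPM in lesional CTL and 84.1 and 52.4 CPM in lesional butyrate mice. Its log2 fold-change was 1.29 (SE 0.37, edgeR FDR 0.141) in lesional against baseline CTL skin and -1.44 (SE 0.37, edgeR FDR 0.737) in lesional butyrate against lesional CTL skin. In the latter comparison 9 of 9 genes of the list had a fold-change below 0 and 0 were called, with a median of -0.21.

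Cytokines known to induce the IL-20 family in skin were tested in 8 of 10 cases, and 5 (Il13, Il1b, Il6, Osm and Tnf) rose in lesional against baseline CTL skin. Of all genes, 2.37% were called higher there. Il1b, a product of myeloid cells and keratinocytes, went from 4.55 and 2.55 CPM to 131 and 136 CPM (log2 fold-change 5.23, SE 0.61, edgeR FDR 0.0294). Il17f had 0 counts in all 4 baseline mice and 73 and 18 in lesional CTL mice, a level at least 14.2 times the floor of 3 counts per library, and it was not called. The list's median log2 fold-change was 4.59, or 4.04 with Il17f at that bound. In lesional butyrate against lesional CTL skin 7 of 8 had a fold-change below 0, the median was -1.59 and 0 were called. Osm had -2.69 (SE 0.72), Il6 -2.59 (SE 0.56) and Il1b -2.56 (SE 0.53) on the log2 scale, with edgeR FDRs of 0.784, 0.737 and 0.737.

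Epidermal genes known to be induced by the IL-20 family and IL-22 were tested in 10 of 11 cases, and 8 rose in lesional against baseline CTL skin. Of all genes, 2.37% were called higher there. Defb3, an antimicrobial defensin, had 0 counts in all 4 baseline mice and 515 and 470 in lesional CTL mice, at least 148 times the floor of 3 counts per library. Krt6b, an injury keratin, had a log2 fold-change of 6.38 (SE 0.65, edgeR FDR 0.0230). S100a8 and S100a9, which neutrophils also make and which were in the neutrophil list too, had 8.72 (SE 0.87) and 8.43 (SE 0.67), with edgeR FDRs of 0.0228 and 0.00944. The list's median was 4.97, and it was the same with Defb3 at its bound. In lesional butyrate against lesional CTL skin 10 of 10 had a fold-change below 0, the median was -1.35 and 0 were called.

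Krt1, Krt10 and Lor, differentiation genes that these cytokines are known to lower, had log2 fold-changes of -1.16 (SE 0.83), -2.43 (SE 0.84) and -2.41 (SE 0.68) in lesional against baseline CTL skin, and 0 of 3 were called. Krt1 and Krt10 were in the suprabasal marker list too, so the lists are not separate results. In lesional butyrate against lesional CTL skin Krt1, Krt10 and Lor had 1.25 (SE 0.83), 1.80 (SE 0.83) and 1.54 (SE 0.66), again with 0 called. Flg, of the same list, was not analysed here.

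**Figure D4:**
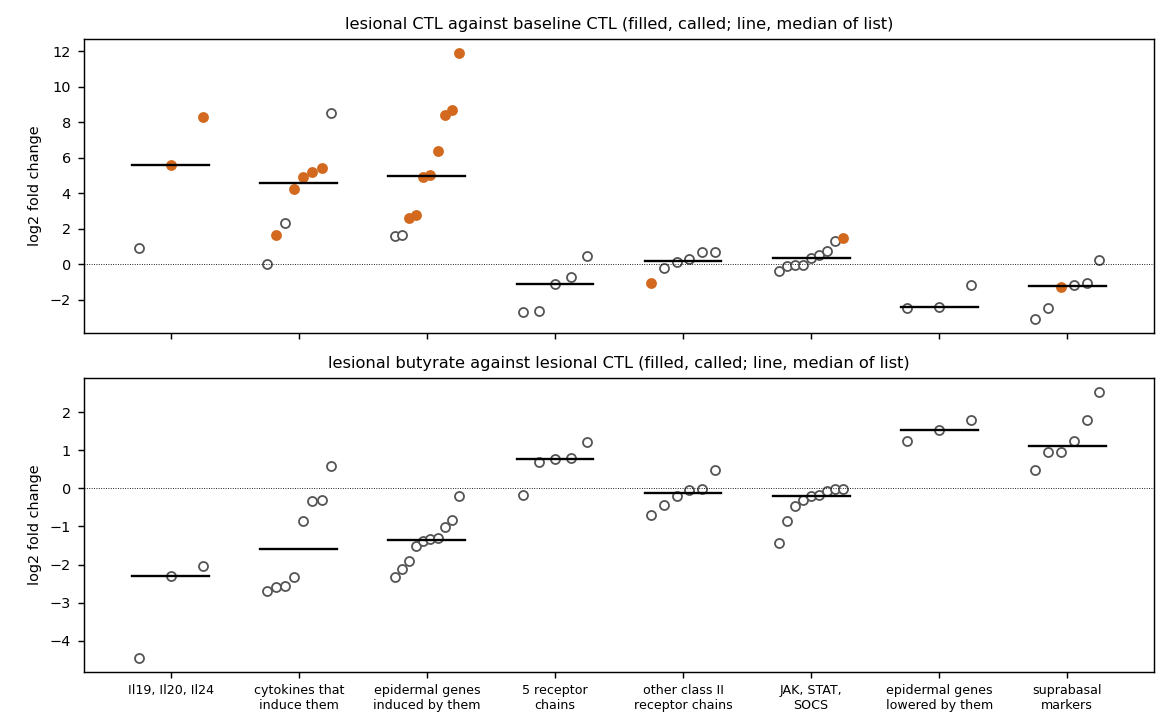
Log2 fold-change (y axis) of every tested gene of 8 lists (x axis) in lesional against baseline CTL skin (top) and lesional butyrate against lesional CTL skin (bottom), with filled dots for calls and a line at each list's median. The ligands, inducing cytokines and induced epidermal genes have medians of 5.58, 4.59 and 4.97 in the top panel and of -2.31, -1.59 and -1.35 in the bottom panel, while the 5 receptor chains have medians of -1.08 and 0.76; the dots of Il17f and Defb3, with 0 counts in baseline mice, depend on the prior count.

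The neighbours of the ligand genes on chromosome 1 were compared as a further list of 10 genes, of which 9 were tested. edgeR called 0 of the 9 in lesional against baseline CTL skin, with a median log2 fold-change of -0.10, and 0 of the 9 in lesional butyrate against lesional CTL skin, with a median of 0.05. Fcmr, an Fc receptor gene 1283 bp from Il24, had 2.68 (SE 1.39, edgeR FDR 0.345) and then -1.95 (SE 1.23, edgeR FDR 1.00). It had 3 and 0 counts in baseline CTL, 10 and 13 in lesional CTL and 6 and 0 in lesional butyrate mice. With libraries at or under the floor of 3 counts, its fold-changes depend on the prior count. Dyrk3, a kinase gene beyond Il10, had 2.13 (SE 1.09, edgeR FDR 0.328) and then -0.30 (SE 1.00, edgeR FDR 1.00). Il20 lies between Il24 and Il19, and in lesional against baseline CTL skin its log2 fold-change of 0.95 was below both of theirs (8.33 and 5.58), which was not tested as a difference between genes.

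**Figure D5:**
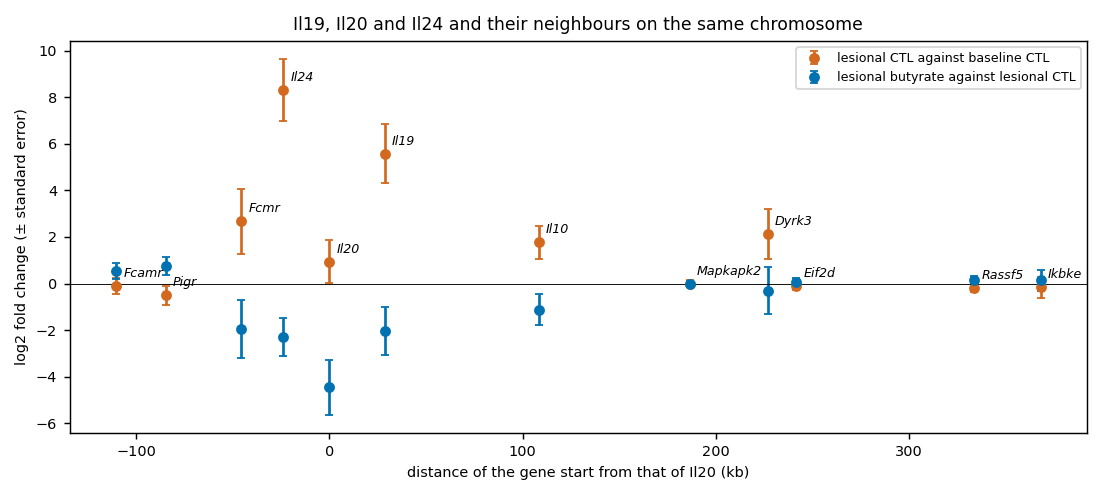
Log2 fold-change with its standard error (y axis) of Il19, Il20, Il24 and 9 neighbouring genes against the distance of each gene's start from that of Il20 in kb (x axis), for lesional against baseline CTL skin (orange) and lesional butyrate against lesional CTL skin (blue). Il24 (8.33) and Il19 (5.58) are the highest orange points and Il20 (-4.46) is the lowest blue point.

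The genes whose pattern over the 8 libraries was most like that of a ligand or receptor were taken as the 3 tested genes with the smallest root mean square difference of centred log2 CPM. For Il24 they were Sprr2j-ps, Lce3b and Mmp13 (differences of 0.411, 0.530 and 0.535, beside a median over all genes of 2.75). Lce3b is a late cornified envelope gene, and Mmp13 is a collagenase that was at 0.499 and 0.830 CPM in baseline CTL mice and at 128 and 78.0 CPM in lesional CTL mice. For Il19 they were Lce3d (0.787), Il24 (0.788) and 4922501L14Rik (0.802), with a median over all genes of 2.77. For Il20 no gene was as close, with Prkg1 at 0.954, Wnt16 at 0.980 and Serpinb12 at 1.04 beside a median of 1.79.

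For the receptor chains the closest genes were nearer. Il20ra was most like Angptl7 (0.265), P2rx2 (0.274) and Skint6 (0.279), and Il22ra2 was most like Skint11 (0.330), Skint6 (0.354) and Flg2 (0.363), so both had Skint6, a gene of a family expressed in skin and thymus, in common. Flg2, which encodes a cornified layer protein, was at 715 and 599 CPM in baseline CTL mice and at 54.3 and 130 CPM in lesional CTL mice. Il20rb was most like Rasgrp1 (0.0936), Abhd14b (0.103) and Ankrd35 (0.104), and Il10rb was most like Gfer (0.0645), Mrpl12 (0.0712) and Nagpa (0.0775). These likenesses describe 8 libraries, whose depth and cell make-up enter every gene, include the library that stood apart, and are smaller for genes of narrow range, such as Il10rb (a range of 0.65 on the log2 scale) against Il19 (8.57). Lce3, Sprr2 and Skint genes have near-identical copies, so that their counts are uncertain.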

How the data were processed

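Total RNA of dorsal skin was sequenced with 1 library per mouse (8 mice, 4 groups of 2). Per the labels and the study's methods, the authors used STAR (2.5.2) with GRCm38 for alignment and featureCounts for counting, and the counts of protein-coding genes were deposited without normalization. The table is named as reverse-strand counts, while the kit named in the labels is not stated to keep strand. Groups were taken from the labels, in which SCFA is sodium butyrate. The first number of the mouse labels separates baseline from lesional mice, and whatever it stands for cannot be told apart from HDM exposure. The middle number separates CTL from butyrate mice, and whatever it stands for cannot be told apart from butyrate. Nothing names separate cages or litters, so p-values measure the spread between these mice.

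edgeR's quasi-likelihood test (edgeR 4.0.16, R 4.3.3, robust glmQLFit) was fitted on all 8 mice with TMM and filterByExpr (minimum count 10), with 1 mean per group and Benjamini-Hochberg adjustment over all 15163 genes tested. Calls needed an FDR below 0.1 and a fold-change above 2. Standard errors were the log2 fold-change divided by the square root of the F statistic, and the prior count was 0.125. CPM used library totals (18004136 to 21085544 counts) multiplied by TMM factors, RPKM the union of GENCODE vM21 exons, and intervals for low counts the exact binomial method (95%, counting error only). Lower bounds used a floor of 3 counts per library. Alternatives were limma-voom (3.58.1), DESeq2 (1.42.0), other scalings, filters and thresholds, fits of fewer groups, and fits without each mouse. limma-voom on only the compared mice was added after the data were seen.

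The 8 genes, the 20 gene lists and the tests were chosen with earlier results of these data known. The text names the 8 genes, at most 4 genes per list with the largest change in 2 main comparisons, and the 3 genes most like each of the 8, of which those for Il22ra1 are not reported here. Tnf and the untested Il22, Ifnl2 and Ifnl3 were named after their values were seen. Fcmr and Adgre1 were matched through their older symbols. The paper's RT-PCR and protein data were not used here.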

Additional observations from a re-analysis of the deposited data

Results flagged for a closer look

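Il20ra was lower in both baseline butyrate mice than in both baseline CTL mice and higher in both lesional butyrate mice than in both lesional CTL mice, so that the butyrate effects in baseline and lesional skin pointed in opposite directions without overlap. The difference between the effects was 1.88 on the log2 scale (SE 1.03, edgeR FDR 0.840, quasi-likelihood interaction test), which was not called. It was 1.10 without baseline butyrate replicate 3, the library with high hair follicle markers, and 3.66 without replicate 1 of that group.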

How the results depend on the processing

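Log2 fold-changes kept their direction in 527 of 530 values from other settings. That total includes settings that changed only the FDR or fold threshold, which reuse the main fold-changes and could not turn. Il19 in the difference between the butyrate effects turned to -0.0025 with library totals only and to -0.41 with a prior count of 2, and Il20 in lesional butyrate against baseline butyrate skin turned to 0.057 with limma-voom. The cause was not tested. Calls among the 8 genes depended on the fit. The share of all genes called is given beside each count. In lesional against baseline CTL skin (2 called, 3.58%), DESeq2 called 4 (7.21%), limma-voom 1 (3.81%) and an FDR below 0.05 1 (1.62%). Only the compared mice gave 5 (12.9%), the fit without the baseline butyrate group 5 (12.4%) and limma-voom on only the compared mice 4 (12.9%). In lesional butyrate against lesional CTL skin (0 called), DESeq2 called 1 (0.818%) and the fit without the baseline butyrate group 1 (1.25%). In lesional butyrate against baseline butyrate skin (0 called), DESeq2 called 2 (4.6%). In lesional butyrate against baseline CTL skin (0 called), DESeq2 called 3 (3.76%) and only the compared mice 4 (7.51%). There the fit without the baseline butyrate group called 3 (8.43%) and limma-voom on only the compared mice 4 (7.61%). The counts over all genes moved too, from 543 in lesional against baseline CTL skin to 1093 with DESeq2 and to 1911 and 1936 without either baseline butyrate mouse, and down to 0 without either baseline CTL mouse, 16 and 23 without either lesional CTL mouse and 109 and 117 without either lesional butyrate mouse. Library totals only moved the median of all genes in that comparison from -0.02 to 0.11, and none of the 8 genes changed direction in it.

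Fits without 1 mouse kept the direction in 363 of 384 values. Many of these fits left out a mouse that is in neither group compared, which hardly moves the fold-change. The total is therefore not a measure of stability. They called 0 to 1 of the 8 genes in lesional butyrate against lesional CTL skin, 0 to 4 in baseline butyrate against CTL skin, 0 to 5 in lesional against baseline CTL skin, 0 to 4 in lesional against baseline butyrate skin, 0 to 3 in lesional butyrate against baseline CTL skin and 0 to 4 for the difference between the butyrate effects. The fits with 4 calls, all without baseline butyrate replicate 1, called 24.1%, 19.1% and 20.9% of all genes in these comparisons in turn. A lone mouse in such a fit is assumed to vary like the other groups. Directions turned in baseline butyrate against CTL skin for Il24 (-2.44 to 3.23), Il22ra1 (-0.59 to 0.17), Il10rb (-0.16 to 0.25) and Il20rb (-1.67 to 0.023). They turned in lesional butyrate against baseline CTL skin for Il22ra1 (-0.13 to 0.29). In lesional against baseline butyrate skin they turned for Il20 (-2.53 to 4.31), Il20ra (-1.52 to 1.04), Il20rb (-0.41 to 1.28), Il22ra1 (-0.10 to 0.66) and Il22ra2 (-1.24 to 0.97). For the difference between the effects they turned for Il19 (-1.64 to 1.70), Il20 (-3.47 to 3.37) and Il24 (-5.53 to 0.14). No paired analysis was made because nothing in the labels pairs mice of different groups. Depth limits Il24 in baseline skin and Il20 in lesional butyrate skin, and 2 mice per group limit every test.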

Other observations

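In lesional against baseline CTL skin and in lesional butyrate against lesional CTL skin, the other cell type marker lists had smaller median fold-changes than that of neutrophils. Over all genes, 75.2% did not overlap in either direction in lesional against baseline CTL skin, and 3.58% were called. In that comparison 8 of 8 macrophage and dendritic cell markers were higher without overlap and 0 were called, with summed levels of 2133 to 2253 CPM against 1259 to 1426 CPM. In lesional butyrate skin they summed to 1592 to 2119 CPM. Of 6 T cell markers listed, 6 were higher without overlap in lesional than in baseline CTL skin and 1 was called, with sums of 36.5 to 69.1 CPM against 18.7 to 19.7 CPM, and lesional butyrate mice had 33.0 to 40.8 CPM.

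Markers of 6 skeletal muscle genes were lower without overlap in lesional CTL skin, where 75.2% of all genes did not overlap in either direction. They summed to 13613 to 19928 CPM against 30807 to 39640 CPM in baseline CTL skin, with 0 called. Fibroblast (6), endothelial (5), adipocyte (6) and sebaceous (6) markers had 0 calls in lesional against baseline CTL skin and in lesional butyrate against lesional CTL skin, with median log2 fold-changes of 0.32, 0.41, -0.39 and -0.30 in the first and of 0.09, -0.39, 0.22 and 0.55 in the second. Of the 5 hair follicle markers tested, 0 were called in either comparison.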
